A study of Mus musculus with 8 samples.

Results

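Small nucleolar RNA (snoRNA) genes of the mouse were set against the places where V5-tagged ZGLP1 gave ChIP-seq peaks. A gene was a member if its symbol began with Snora or Snord and a digit, or if RefSeq gave it the type snoRNA, and if it lay on chromosomes 1 to 19 or X of GRCm38. The rule found 1341 members among 49554 genes. Of these, 133 carry a Snora or Snord symbol (39 Snora and 94 Snord) and 1208 carry another name, mostly predicted copies (910 with a Gm name, 288 with a LOC name and 10 named after sequenced clones). All but 1 member are of the type snoRNA. The exception is Snord73b, which the gene table lists as a small nuclear RNA. The measure was the distance from a gene's nearer end to the closest of 32912 peak summits on the same chromosomes, where a summit is the single base of a peak with the most signal, and a summit within 1 kb is called near.

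ZGLP1 is a zinc-finger protein related to the GATA factors, and the study concerns its part in the start of the female germ cell programme. All cells overexpressed V5-tagged Zglp1 and came from embryonic stem cells (ESCs) of a C57BL/6 x DBA2 background, and all received doxycycline (Dox). The 5 ChIP libraries, 1 per group and with equal cell numbers, were made from primordial germ cell-like cells (PGCLCs) and ESCs. They are c7 PGCLCs with Dox only, c7 PGCLCs with Dox and retinoic acid (RA), c8 PGCLCs with Dox only, c8 PGCLCs with Dox and RA, and ESCs with Dox and RA for 24 h. RA and Dox were given to PGCLCs from culture day 3 (c3). The other 3 libraries are inputs of c8 PGCLCs with Dox only, c8 PGCLCs with Dox and RA, and ESCs with Dox and RA. PGCLCs were sorted as SC+ mCherry+ and ESCs as mCherry+. The summits come as 1 list with no library, height or score, so no condition could be compared, no replicate error exists and no test was made. The shares given here describe that list, with exact 95% binomial intervals that cover counting error only.

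SnoRNAs guide chemical changes of other RNAs, above all of ribosomal RNA in the nucleolus. Box C/D snoRNAs, named Snord, pair with their target and direct methylation of the ribose, and box H/ACA snoRNAs, named Snora, direct the change of uridine to pseudouridine. A few, among them U3, U8 and U13, serve in cutting or otherwise processing the ribosomal RNA precursor. In mammals most snoRNAs are cut from the introns of a host gene and so share its promoter, and many hosts encode ribosomal proteins, translation factors or RNAs with no known protein product. A small number have a promoter of their own.

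Because a snoRNA in an intron has no promoter of its own, the sequences shown here are the hosts' start regions. They do not hold all summits near members. Of 72 such summits whose containing gene has a known start site, 44 lay within 1 kb of one and 28 within 250 bases. RefSeq's promoter table for GRCm38.p6 holds windows of 300 bases, 250 before and 50 after a start site, for 74 of the 91 genes that contain a Snora or Snord gene. There are 79 such windows, since a gene can have several start sites, and 41 of them hold a summit. The first set is shown because a summit lay within 34 bases of the letters CACGTG, which are printed in capitals. It was chosen after these values were seen, and each sequence reads 5′ to 3′ along the gene's strand.
Rpl13a, chr7:45128696-45128995, minus strand: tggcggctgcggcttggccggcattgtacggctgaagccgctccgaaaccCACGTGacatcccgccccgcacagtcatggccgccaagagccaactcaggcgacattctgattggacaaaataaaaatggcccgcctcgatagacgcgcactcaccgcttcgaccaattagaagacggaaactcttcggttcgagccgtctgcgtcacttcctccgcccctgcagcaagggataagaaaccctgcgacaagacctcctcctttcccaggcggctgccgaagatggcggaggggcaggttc
Rpl23, chr11:97782390-97782689, minus strand: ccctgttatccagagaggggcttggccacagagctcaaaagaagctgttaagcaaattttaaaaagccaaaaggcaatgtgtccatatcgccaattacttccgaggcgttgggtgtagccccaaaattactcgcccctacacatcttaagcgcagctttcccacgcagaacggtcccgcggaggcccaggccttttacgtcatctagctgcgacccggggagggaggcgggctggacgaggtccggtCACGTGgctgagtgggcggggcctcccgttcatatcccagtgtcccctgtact
Eif4g1, chr16:20672477-20672776, plus strand: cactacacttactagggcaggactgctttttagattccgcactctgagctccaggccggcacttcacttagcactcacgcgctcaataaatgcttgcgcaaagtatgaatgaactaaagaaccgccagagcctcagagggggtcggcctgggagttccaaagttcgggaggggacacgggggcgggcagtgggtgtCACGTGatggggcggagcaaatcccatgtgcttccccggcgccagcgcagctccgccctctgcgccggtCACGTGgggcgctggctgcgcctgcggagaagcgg
Wdr43, chr17:71615965-71616264, plus strand: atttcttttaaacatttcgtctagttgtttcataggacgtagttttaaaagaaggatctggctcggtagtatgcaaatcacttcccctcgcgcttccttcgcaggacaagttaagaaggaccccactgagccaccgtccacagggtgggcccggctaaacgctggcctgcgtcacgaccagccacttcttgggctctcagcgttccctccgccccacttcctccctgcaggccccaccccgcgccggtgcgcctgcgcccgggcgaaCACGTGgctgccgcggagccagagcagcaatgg
Tsr1, chr11:74897830-74898129, plus strand: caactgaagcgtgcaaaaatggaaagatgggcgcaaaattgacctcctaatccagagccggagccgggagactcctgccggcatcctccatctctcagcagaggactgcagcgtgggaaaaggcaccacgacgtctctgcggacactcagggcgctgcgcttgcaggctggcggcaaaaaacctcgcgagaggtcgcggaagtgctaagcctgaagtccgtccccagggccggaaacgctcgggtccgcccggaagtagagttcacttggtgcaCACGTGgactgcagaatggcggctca
Snx5, chr2:144270523-144270822, minus strand: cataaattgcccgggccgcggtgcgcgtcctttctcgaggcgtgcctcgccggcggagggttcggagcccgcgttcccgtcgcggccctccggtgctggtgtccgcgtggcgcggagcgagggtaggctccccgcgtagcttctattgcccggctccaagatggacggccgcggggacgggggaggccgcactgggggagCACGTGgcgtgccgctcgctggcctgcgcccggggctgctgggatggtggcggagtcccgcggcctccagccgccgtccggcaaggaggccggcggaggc
In the Eif4g1 window 1 of the 2 matches covers the summit itself. The nearer edge of the match lies 12 bases from the summit in Wdr43 and in Tsr1, 16 bases in Snx5, 30 bases in Rpl23 and 34 bases in Rpl13a. The other host windows with CACGTG and a summit are not printed, and in them the match lies 94 to 176 bases from the summit. Snord66 in Eif4g1, Snord17 in Snx5, Snord91a in Tsr1 and Snord92 in Wdr43 lay 8192, 3284, 7352 and 14221 bases from their closest summits. Snora21 lay 704 bases from the Rpl23 start summit.

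A second set is shown for the core letters read by GATA factors, GATA on either strand, in the start regions of 3 hosts whose own snoRNA genes are described further on. GATA and its reverse complement TATC are in capitals.
Rack1, chr11:48800110-48800409, plus strand: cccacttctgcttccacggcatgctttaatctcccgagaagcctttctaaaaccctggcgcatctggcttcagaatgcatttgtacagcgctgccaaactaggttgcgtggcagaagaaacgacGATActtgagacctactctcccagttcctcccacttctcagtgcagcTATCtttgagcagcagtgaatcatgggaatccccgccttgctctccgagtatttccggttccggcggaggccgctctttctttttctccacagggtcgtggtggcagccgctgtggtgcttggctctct
Gas5, chr1:161034916-161035215, plus strand: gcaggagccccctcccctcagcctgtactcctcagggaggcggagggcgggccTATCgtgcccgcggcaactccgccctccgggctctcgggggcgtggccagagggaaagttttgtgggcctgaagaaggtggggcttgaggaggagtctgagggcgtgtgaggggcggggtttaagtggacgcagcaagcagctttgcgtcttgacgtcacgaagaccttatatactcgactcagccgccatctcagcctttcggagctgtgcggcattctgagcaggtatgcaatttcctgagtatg
Snhg12, chr4:132308428-132308727, plus strand: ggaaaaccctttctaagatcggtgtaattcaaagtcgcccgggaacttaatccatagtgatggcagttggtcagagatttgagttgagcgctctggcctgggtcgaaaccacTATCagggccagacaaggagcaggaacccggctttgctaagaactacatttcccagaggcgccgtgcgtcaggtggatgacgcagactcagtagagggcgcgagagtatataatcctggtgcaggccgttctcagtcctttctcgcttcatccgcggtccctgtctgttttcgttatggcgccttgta
The Rack1 window holds 2 matches, 14 and 32 bases from its summit. In Gas5 the only match is 92 bases from the summit, and in Snhg12 it is 134 bases away. These 3 were chosen after their values were seen. Other hosts described below also hold GATA in a start window with a summit. Their nearest matches lie 78 bases from it in Nop56, 121 in Rpl13a, 134 in 2410002F23Rik and 169 in Eif4a2. Further described hosts hold no GATA in a start window with a summit, among them 2410006H16Rik, Ncl, Ptcd3, Rps12, Eif4g1 and Snhg1. GATA was in 44.3% of host windows, against 57.7% of all windows.

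Of the 1341 snoRNA genes, 101 had a near summit (7.53%, interval 6.18 to 9.08), against 30.1% of all genes on the same chromosomes, 53.6% of protein-coding genes and 19.3% of lncRNA genes. The snoRNA genes thus had a near summit less often than the genome's genes as a whole. The windows at both ends of a short gene overlap, so less sequence was searched for a snoRNA gene. Median lengths were 130 bases for snoRNA genes, 6006 for all genes and 17329 for protein-coding genes. Every comparison of snoRNA genes with longer genes below has this limit. The share over all members hides a wide gap between named and predicted members. Among the Snora and Snord genes 54 of 133 had a near summit (40.6%, 32.2 to 49.5), and their median distance to the closest summit was 1999 bases. Among the other members it was 47 of 1208 (3.89%, 2.87 to 5.14), with a median distance of 84845 bases. Box H/ACA genes, with 18 of 39 (46.2%, 30.1 to 62.8), and box C/D genes, with 36 of 94 (38.3%, 28.5 to 48.9), had overlapping intervals. Without the 18 Snord genes inside the Snhg14 array, box C/D genes stood at 36 of 76 (47.4%). The array contains 206 members in all, none near a summit, and those with other names stay in the shares of predicted members. The predicted Gm copies were lowest, with 18 of 910 (1.98%), and the LOC members had 28 of 288 (9.72%). For comparison, 57.1% of 408 tRNA genes, 14.3% of 1228 miRNA genes and 5.98% of 1003 snRNA genes had a near summit.

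**Figure D1:**
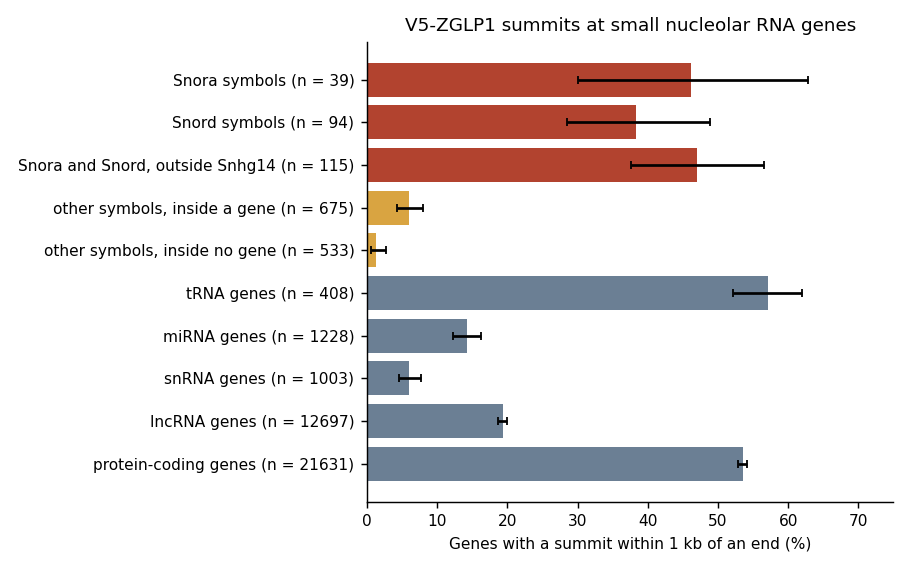
Share of genes with a summit within 1 kb of either end, in percent, for classes of snoRNA genes and for other gene classes; bars are shares and lines the exact 95% binomial intervals. The Snora (46.2%) and Snord (38.3%) genes stand below tRNA (57.1%) and protein-coding genes (53.6%), and the other snoRNA genes stand near the bottom (5.93% inside a gene, 1.31% inside none).

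The gap between named and predicted members held at every distance examined. Within 100 bases a summit was found for 7.52% of the Snora and Snord genes and 0.745% of the other members, against 20.4% of protein-coding genes. Within 10 kb the shares were 74.4% of Snora and Snord genes and 18.9% of the other members, against 67.3% of protein-coding genes. The Snora and Snord genes were below protein-coding genes up to 2 kb (50.4%, 41.6 to 59.2, against 58.0%). They were above them at 5 kb (66.9%, 58.2 to 74.8, against 63.1%). At 2, 5 and 10 kb the interval of the Snora and Snord genes includes the protein-coding share, so the order there is uncertain.

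**Figure D2:**
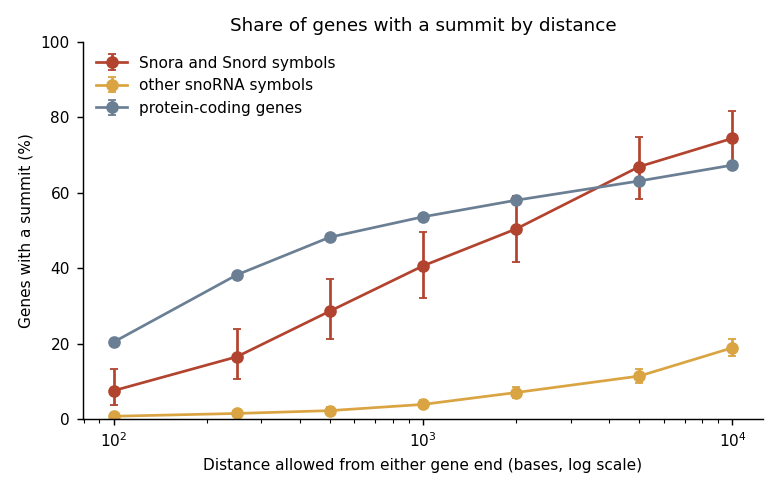
Share of genes, in percent, with a summit within a given distance of either end, for the 133 Snora and Snord genes, the 1208 other snoRNA genes and all protein-coding genes. The Snora and Snord line starts at 7.52% at 100 bases and crosses the protein-coding line between 2 and 5 kb. At both of these distances its interval includes the protein-coding share.

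A few members had a summit inside the gene or right beside it. Snord52, a box C/D guide, has a summit on the base at its lower end (chr17:34950950). LOC115488830 in Ddx39b, an RNA helicase gene, has one 8 bases from its end, and Gm23969 in Rpl7a, which encodes a protein of the large ribosomal subunit, holds one 10 bases from its end. LOC115485831 in Rack1, LOC115487677 in Gas5 and Snord37 in Eef2 follow at 11, 11 and 13 bases. Further close ones are Snord104 in the lncRNA gene Gm36220 at 32 bases, Gm25906 in no gene at 33 bases and LOC115487884 in Snhg15 at 41 bases. In all, 11 members have a summit between their own ends, 5 of them with a Snora or Snord symbol: Snord52, Snord104, Snora7a, Snord13 and Snord118.

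Most members near a summit had a single one. A single near summit was found for 72 members, 24 had 2 and 5 had 3. The 5 are LOC115487638 in Gas5, LOC115488830 in Ddx39b, Snora64 in Rps2, Snora7a in Rpl32 and Snord37 in Eef2. Among those with 2 are LOC115486178 in Zfas1, LOC115487043 in Tomm20 and LOC115487513 in Rps12. Since neighbouring members share summits, the 135 pairs of a member and a near summit rest on 100 different summits (0.304% of the list), and 23 of these were near at least 2 members. The members just inside 1 kb were AF357399 in Rps16 at 949 bases and 3 at 939 to 947 bases, and those just outside were Snord72 in Rpl37 at 1023 bases, Snora73b in Snhg3 at 1066 bases and Snord42a at 1096 bases.

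Most snoRNA genes lie within a larger gene. By position alone, since the gene table gives no strand, 805 of the 1341 members (60.0%) lay inside 1 or more other genes, 489 genes in all, and 536 lay inside none. Of the Snora and Snord genes, 130 of 133 were inside another gene. Members inside a gene had a near summit in 92 of 805 cases (11.4%, 9.31 to 13.8), and members inside none in 9 of 536 (1.68%, 0.771 to 3.16). Among the predicted and clone-named members the shares were 5.93% inside a gene and 1.31% inside none.

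The containing genes themselves were near summits far more often than the snoRNA genes within them. Of the 489 containing genes, 305 had a summit within 1 kb of an end (62.4%, 57.9 to 66.7). Of the 91 that contain a Snora or Snord gene it was 79 (86.8%, 78.1 to 93.0), against 53.3% of protein-coding genes that contain no snoRNA gene. Of the ribosomal protein genes in that set, 24 of 25 had a summit (96.0%), the exception being Rpl17, and all 6 translation factor genes had one. Other protein-coding genes stood at 29 of 35 (82.9%) and non-coding ones at 20 of 25 (80.0%). Of all ribosomal protein genes, those with a snoRNA gene stood at 29 of 30 (96.7%) and those without at 55 of 59 (93.2%), so the share was high in both. Of the genes with an Snhg symbol, which stands for snoRNA host gene, 16 of 18 had a summit, and the other two are Snhg14 and Snhg7os. The full list of 12 containing genes without one is Rc3h2, Gm42228, Snhg14, Srr, AI450353, Zbed3, Gm26590, Rpl17, Lbhd1, Mir3084-2, Rbmx and Htr2c. Only a gene's outer ends count here, and Rc3h2 and Zbed3 have a summit 8 and 207 bases before an annotated start site. Gm42228, Srr, AI450353, Gm26590, Lbhd1 and Mir3084-2 each contain a snoRNA gene that also lies in another gene with a summit near an end.

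Most of these hosts had a summit at the start of the gene, and fewer had one at the end. Among the 74 genes with a Snora or Snord gene and a known strand, 65 had a summit within 1 kb of the first base (87.8%, 78.2 to 94.3) and 23 within 1 kb of the last base (31.1%, 20.8 to 42.9). Over all protein-coding genes with a strand the shares were 52.2% and 6.27%, and 17.8% of lncRNA genes had a summit at the first base. Hosts are short, with a median length of 4947 bases, so a window at the last base can reach the body of the gene. Among genes of 2 to 10 kb alone, hosts stood at 90.5% at the first base and 31.0% at the last (17.6 to 47.1), against 48.7% and 9.55% of protein-coding genes. Counting every start site in the promoter table, 69 of 74 hosts (93.2%) had a summit within 1 kb of one, against 56.4% of protein-coding genes. A summit within 100 bases of a start site was found for 51.4% of hosts, against 26.2% of protein-coding genes. The median offset of the closest summit was 7 bases downstream in hosts (interval -31 to 65, where negative offsets lie before the start site) and 18 bases in protein-coding genes.

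**Figure D3:**
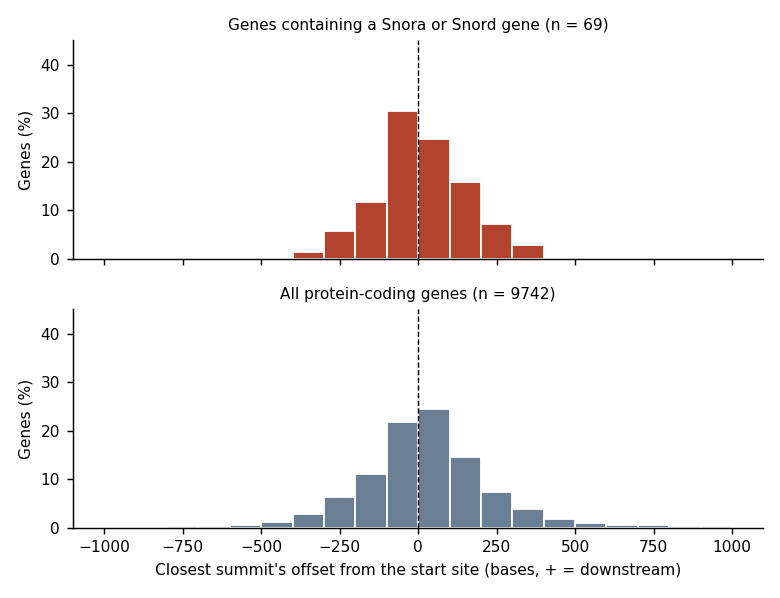
Distribution of the offset, in bases, from a gene's annotated start site to its closest summit, for the 69 genes containing a Snora or Snord gene (top) and the 9742 protein-coding genes (bottom) that have one within 1 kb, as the share of those genes per bin of 100 bases. Summits centre on the start site in both, with medians of 7 and 18 bases.

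Across hosts, snoRNA genes that lie closer to the start of the containing gene more often had a near summit. Among the Snora and Snord genes whose containing gene has a known start site, all 7 that lie within 500 bases of it had a near summit, and 13 of 14 did at over 500 and up to 1000 bases (92.9%). The share was 72.2% from there to 2000 bases (13 of 18) and 25.8% from there to 5000 bases (8 of 31). Beyond 5 kb none of the remaining 14 and 28, in bins up to and over 20 kb, had one, and 18 of the 28 lie in the Snhg14 array. The predicted members followed the same order past 500 bases, with 14 of 17 up to 1000 bases, 8 of 35 up to 2000 bases, 5 of 55 up to 5000 bases, 1 of 95 up to 20 kb and 1 of 370 beyond. Their bin nearest the start had 4 of 9. Snora and Snord genes near a summit lay at a median of 1103 bases from the start site, and those not near one at 8170 bases, or 4027 bases without the genes inside Snhg14, a choice made after seeing the data. The start site and the snoRNA gene can both lie within 1 kb of the same summit, so these shares and the hosts' own are not separate measurements.

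**Figure D4:**
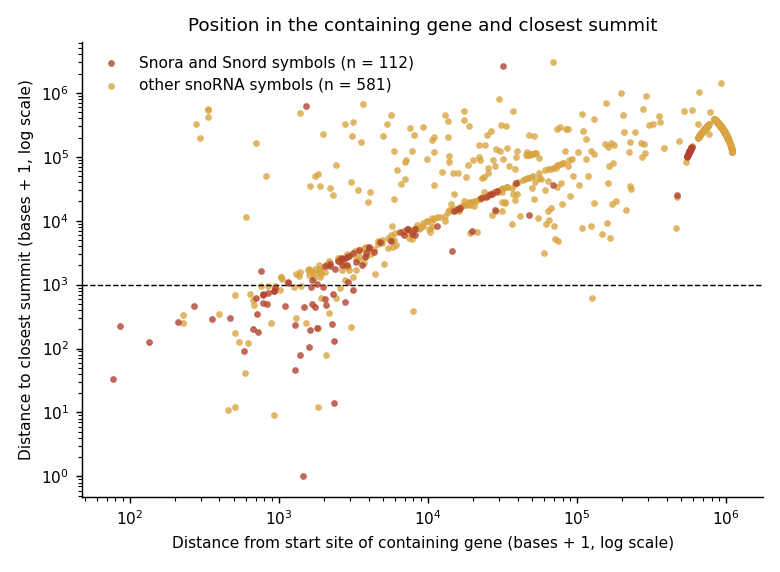
Distance of each snoRNA gene from the nearest start site of the gene that contains it (x axis, bases, log scale) against its distance to the closest summit (y axis, bases, log scale), 1 added to both, with the 1 kb limit drawn. Points along the diagonal are genes whose closest summit lies about as far away as the host's start site. Snora and Snord genes with a summit within 1 kb lie at a median of 1103 bases from the start site and the rest at 8170 bases, or 4027 without those inside Snhg14.

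The share of members near a summit varied with the class of host. Inside ribosomal protein genes 25 of 36 Snora and Snord genes had a near summit (69.4%, 51.9 to 83.7), and their median distance to the host's start site was 1758 bases. Inside other protein-coding genes it was 5 of 39 (12.8%, 4.30 to 27.4), at a median of 7078 bases. Inside non-coding genes other than Snhg14 it was 20 of 31 (64.5%, 45.4 to 80.8), at a median of 1460 bases, and inside translation factor genes it was 2 of 6. Of the 79 Snora and Snord genes without a near summit, 56 were inside a gene that has one within 1 kb of an end, 18 were inside Snhg14, 4 were inside other genes without one and 1 was inside no gene. Among the 4 are Snord90 in Rc3h2 and Snora47 in Zbed3, hosts that do have a summit at an annotated start site. A start site of the host is known for 112 Snora and Snord genes. Where containing genes overlap, only the one with the nearest start site was taken as host here. Of the 91 in a host with a summit at a start site, 41 had a near summit. None of the rest did, but 18 of these lie in the single Snhg14 array, and the others are only Snord93, Snord61 and Snora35. Snord93 was counted by Gm42228, but it also lies in 2700038G22Rik, which has a summit 30 bases past its start site.

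The box C/D host Gas5, a lncRNA gene that accumulates in growth-arrested cells, holds 8 snoRNA genes, and 6 of them had a near summit. Its body carries 3 summits (chr1, bases 161035063, 161036385 and 161036995) and a further one lies 279 bases before its first base. The last of the 3 falls inside LOC115487677. The members without one are Snord47 and LOC115487640, the pair closest to the gene's end, at 1097 and 1313 bases. Snhg12 has a summit 2 bases before its first base and another inside the gene, and all 4 of its snoRNA genes had a near summit, with Snora44 at 46 bases, Snora61 at 192 bases, Snora16a at 515 bases and Snord99 at 588 bases. Snhg1 also holds 8 members but has 1 summit within 1 kb of its ends, 175 bases before its start, and only its first 2 members, LOC115489078 and LOC115489084, were near it, at 681 and 939 bases.

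Rpl13a encodes a large-subunit protein and holds Snord32a, Snord33, Snord34 and Snord35a, box C/D RNAs that have also been tied to lipid-induced cell stress. All 4 had 1 and the same near summit, at chr7:45127151 in the body of the gene, 1594 bases past the start site. It lies 206 bases from Snord33, 232 from Snord32a, 483 from Snord34 and 716 from Snord35a. The summit at the Rpl13a start, in the window printed above, was within 1 kb of none of them. Rack1, which encodes a scaffold protein of the small subunit, has summits at offsets -110, 583 and 2240 from its start site, and its 3 members had distances of 11 bases (LOC115485831), 491 bases (Snord96a) and 539 bases (Snord95). Nop56 encodes a core protein of the box C/D particle and itself holds 5 snoRNA genes. Its summits were at offsets -11 and 1618, and the first 2 members, Snord110 and LOC115489609, were near the second one.

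Several hosts had a summit at the start and none near any snoRNA gene. Rpl4 has summits at offsets -618 and 76 and a further one 797 bases past its last base, and its 5 members, which lie 1661 to 3736 bases from the start, had closest distances of 1585 to 2600 bases. Taf1d, which encodes a subunit of the RNA polymerase I initiation complex, has summits at offsets 157 and 906. Its 6 members lie 7588 to 10462 bases from the start and had closest distances of 6682 to 9556 bases. Eif4a2, which encodes a translation initiation helicase, had 1 of its 5 members near a summit. 2410002F23Rik, with 4 members, and Snhg5, with 2, had none near although their own summits lay 1 and 287 bases before the start site. The genes Ptcd3, Cul5 and Gm15983, with a summit 0 to 3 bases from an end, each hold 1 member and none was near. In contrast, 1110038B12Rik, Zfas1 and 2410006H16Rik, short lncRNA genes with 4, 4 and 3 summits within 1 kb of an end, had all of their 2, 3 and 3 members near a summit, while Eif4g1 and BC005537, with 4 summits each, had no member near one.

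**Figure D5:**
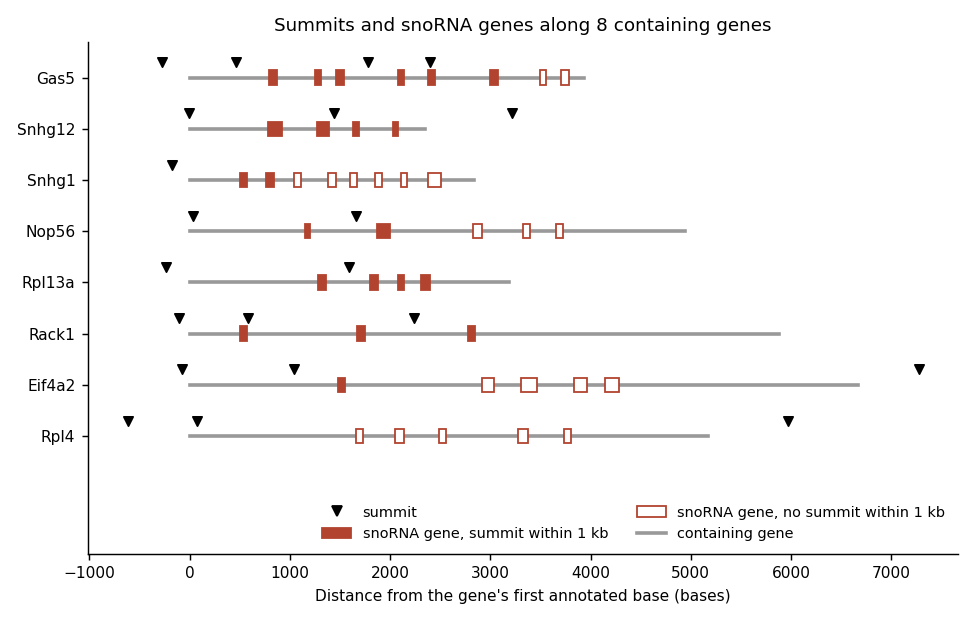
Position of summits (triangles) and snoRNA genes (boxes, filled where a summit lies within 1 kb) along 8 containing genes, in bases from the gene's first annotated base. Gas5, Snhg12 and Rpl13a have summits among their snoRNA genes, while Snhg1 has 1 summit before the gene and Rpl4 has none among its snoRNA genes.

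Among the other hosts, Rpl3 and Rps12 had all 3 members near a summit, Snhg7 both of its members and Rpl7a 2 of 4. In Rps3, Snord15a was 699 bases and Snord15b 3924 bases from a summit. In Ncl, which encodes nucleolin, Snord82 was 824 bases and Snora75 5866 bases away. In Snhg3, Snora73a was at 613 bases and Snora73b at 1066 bases. Dkc1, which encodes the pseudouridine synthase of the box H/ACA particle, has a summit 482 bases from its start, and its 1 member had none near. The pairs Snord15a and Snord15b, and Snora73a and Snora73b, are related copies that fell on either side of the limit within 1 host.

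Apart from their ends and start sites, the hosts also carried summits in their interior. In 90 genes that contain a Snora or Snord gene, Snhg14 left out, 33 summits lay more than 1 kb from both ends and from every known start site. Of these, 8 (24.2%, 11.1 to 42.3) were within 250 bases of a snoRNA gene. The stretches within 250 bases of a snoRNA gene make up 4.04% of that interior sequence (53.8 of 1331 kb). These 8 lie beside LOC115487638 in Gas5, Snord37 in Eef2, Snora21 in Rpl23, LOC115488570 in Rpl3, Snora74a in Snhg4, Snora43 in Snhg7, LOC115489609 in Nop56, and both Snord33 and Snord32a in Rpl13a. The 4.04% pools hosts of all lengths, so long hosts weigh most in it. In a short host with several snoRNA genes, such stretches can cover much of the interior. The summits beside Snora21 and Snora43 lay 1004 and 1048 bases from a host end, just past the interior limit. No start site is known for Rpl3 and Snhg4, so a summit there could lie near an unlisted start. The shares therefore cannot show whether summits gather at snoRNA genes. The hosts' interiors were not compared with those of other genes of like length.

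Snord118 and Snord13, which are transcribed from promoters of their own, each had a summit within the gene. Snord118 (U8), which is needed for the maturation of the large-subunit RNAs, lies inside no other gene at chr11:69073426-69073562, with its summit at base 69073520. Snord13 (U13), which guides acetylation of the small-subunit RNA, lies at chr8:31149861-31149958, with its summit at base 31149913. Both have a protein-coding gene close by. Tmem107 is 133 bases from Snord118, with the summit 227 bases from its end, and Tti2 is 358 bases from Snord13, with the summit 403 bases from its end. Snord89, the remaining Snord gene inside no gene, was 13015 bases from its closest summit. The U3 genes Rnu3a and Rnu3b1 are in the gene table but carry another type and are not members, and Snord3a was not analysed here.

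Of the predicted members inside no gene, 7 of 533 had a near summit. Gm25906 and Gm25214 hold it between their own ends, 33 and 53 bases from the nearer one, and their closest neighbouring genes, Ncan and Zfp64, are 2165 and 11163 bases away. Gm22711 shares its summit, 214 bases away, with Snord104. Gm25857, Gm23234, LOC115489376 and Gm24903 were at 559, 593, 604 and 906 bases.

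The large imprinted arrays had no near summit. Snhg14, whose paternal copy is transcribed chiefly in neurons in mammals and which carries repeated Snord115 and Snord116 genes, contains 206 members, 18 of them with a Snord symbol. None had a near summit, and the closest was 23340 bases from a summit. The members of an array share 1 neighbourhood and are not separate observations. Rian, a maternally expressed lncRNA gene of the Dlk1-Dio3 region, contains 11 members with none near, the closest at 88056 bases. The copies within such arrays are alike, and the sources used here do not say how reads that match several copies were placed, so an empty array is uncertain. Of the 54 members on X, 4 of them with a Snora or Snord symbol, none had a near summit (up to 6.60%), and X carries 336 summits in all. Members with a summit were shorter than the rest, with median lengths of 83.0 and 130 bases. The Snora and Snord genes have a median length of 90.0 bases and the other members 131 bases.

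The genes for proteins that build and use snoRNA particles were near summits about as often as the hosts of Snora and Snord genes (86.8%). Over all containing genes the share was lower (62.4%). Nop56, Nop58, Ncl and Wdr43 contain a Snora or Snord gene themselves, so the groups overlap. All 4 core proteins of the box C/D particle had a summit within 1 kb of an end, Nop56 at 34 bases, Nop58 at 42, the methyltransferase gene Fbl at 96 and Snu13 at 101. So did all 4 of the box H/ACA particle, Gar1 at 69 bases, Nop10 at 131, Nhp2 at 147 and Dkc1 at 482. Of 16 genes for assembly and transport 13 did, led by Tgs1, which modifies the cap of some snoRNAs, at 1 base, Ruvbl1 at 9 and Coil at 12, and with Ruvbl2, Smn1 and Pih1d1 outside at 1321, 1714 and 2337 bases. Tcof1, whose product works in ribosomal RNA transcription, contains no member and had a summit at 209 bases. All 8 genes for release and end trimming had one, as did 23 of 24 genes of the U3 particle and early ribosome assembly, where the RNA acetyltransferase gene Nat10 was outside at 1752 bases. The 5 lists together came to 52 of 56 genes (92.9%, 82.7 to 98.0), against 53.6% of all protein-coding genes, with a median distance of 98.5 bases. Among 10 other structural RNA genes 8 had a near summit: Rnu12, Rnu11, Rpph1, Rn7s2, Terc, Rmrp, Rn7s1 and Rn7sk, at 2 to 397 bases. Rn4.5s and Vaultrc5 were at 3667 and 7895 bases.

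The hosts' start windows were searched for 7 motifs on both strands. GATA was in 44.3% of the 79 host windows, against 57.7% of all 32619 windows, and in 46.3% of the 41 host windows with a summit, against 38.8% of the 6168 windows with a summit overall. AGATAA and TGATAA, which each contain GATA and so are counted in it too, were rarer. AGATAA was in 2 of 79 host windows (2.53%), against 3655 of all 32619, and TGATAA in 7 of 79 (8.86%), against 2936 of all. CACGTG, the same on both strands, was in 15 of 79 host windows (19.0%, 11.0 to 29.4), against 7.20% of all, and in 12 of the 41 with a summit (29.3%, 16.1 to 45.5), against 11.5% of all windows with a summit. These 12 belong to 5730408K05Rik, AA465934, Ccar1, Eif3a, Eif4g1, Rab3gap2, Rpl13a, Rpl23, Snhg9, Snx5, Tsr1 and Wdr43. TATAAA was in 22.8% of host windows against 13.7% of all, CCAAT in 39.2% against 37.6%, and GGGCGG in 65.8% against 35.9%. Among windows with a summit, GGGCGG was in 75.6% of the hosts' and 70.0% of all. TATAAA was in 8 of the hosts' 41 (19.5%, 8.82 to 34.9) and in 5.06% of all. The windows of Rps2 and Snhg9, both among these 8, overlap and share the same matches and summit. A match says only that the letters occur in the window.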

How the data were processed

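Per the labels' protocols, 5 anti-V5 ChIP libraries and 3 inputs were sequenced. The submitters' processing notes name MACS2 2.1.1.20160309 and HOMER 4.9.1, Bowtie 1.1.2 with SAMtools 1.3, cutadapt 1.9.1 and Trim Galore 0.4.1, Picard 2.1.0 and bedtools, and the build mm10, without settings. The authors deposited 1 list of 32927 summits as base positions, carrying neither a score nor a library. Which libraries gave it, its threshold and whether positions count from 0 or 1 are not given in the sources used here, and read depth is unknown.

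Summits were set against RefSeq's gene table and promoter windows for GRCm38.p6, matched by gene ID and symbol. The mm10 and GRCm38 coordinates are the same for these chromosomes. Distance was counted in bases to the nearer gene end, and 0 means on that end. Containing genes were taken by position. Hosts were classed by symbol and gene type. Interior means over 1 kb from both ends and every known start site. No snoRNA sequence was used here.

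The members, gene lists, motifs and the rule for named genes were chosen with earlier results of these data known. The rule took the 10 members with the closest and the 10 with most summits, members inside no gene with a near summit, the 10 hosts with most members, the 5 with the closest and the 5 with most summits, and a fixed list; 2 of the genes it names are not reported here. Other names, interior summits and printed windows were chosen after their values were seen. The Igk locus, a host by position, has 4 summits within it, the closest 20231 bases from an end, and none of its 4 members was near one. Papd5 was not matched by that name and is counted as Tent4b.

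Intervals came from SciPy 1.17.1, figures from matplotlib 3.10.9 and tables from pandas 2.3.3 with numpy 2.4.6 under Python 3.11.15. On simulated data 200 of 200 planted near genes were found. Alternatives covered distance, membership, host class, gene end and merged summits.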

Additional observations from a re-analysis of the deposited data

How the results depend on the processing

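Of 36 alternatives, 10 stayed within the interval of the value reported and 26 moved beyond it. The choices named here as added, 4 in all, were made after seeing the data. The share of snoRNA genes near a summit (7.53%) was 4.85% within 500 bases, 11.3% within 2 kb, 16.9% within 5 kb and 24.4% within 10 kb. It was 40.6% for Snora and Snord genes, 11.4% inside and 1.68% outside other genes, and 3.95% without summits near a containing gene's ends. Added alternatives gave 42.5% for known transcripts and 47.0% for Snora and Snord genes outside Snhg14. These values and the 40.6% lie above the 30.1% of all genes, while the share over all members lies below it. The hosts' share (62.4%) was 68.9% within 5 kb, 70.8% within 10 kb, 71.8% for protein-coding and 32.5% for non-coding hosts, 8.85% at the last base alone and, as an added alternative, 86.8% for hosts of Snora and Snord genes. The share inside another gene (60.0%) was 34.5% with protein-coding genes alone, 53.5% without Gm and Rik genes and 97.7% for Snora and Snord genes, which was added. Of the summits near members inside a gene, 65.2% lay within 1 kb of that gene's end, 45.7% within 500 bases and 87.0% within 2 kb. The snoRNP share (92.9%) was 98.2% within 2 kb and 100% within 10 kb. The median distance over all members (67260 bases) was 95860 inside no gene, 37647 inside a gene and 48420 with 1 locus per containing gene. Each change follows from the distance or the members counted. No paired analysis was possible because the list names no library. Depth and scores are unknown, so the lack of a summit can mean no binding or a peak too weak for the list, and no left-out library could be examined.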
